A study of Mus musculus with 6 samples.

Results

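The genes described here are 48 axon guidance ligands and receptors of the mouse, and the data are the accessible chromatin intervals that lay nearest to them. They fall into 20 genes of the Eph/ephrin system, 16 semaphorin, plexin and neuropilin genes, and 12 genes of the Slit, Robo, netrin, Dcc and Unc5 group. An interval belonged to a gene when the closest end of any protein-coding gene to its midpoint, within 100 kb, was an end of that gene. By this rule 413 of the 91228 intervals listed in 2iL, 433 of the 88810 listed at 48 h and 474 of the 78055 listed at 96 h lay at a guidance gene. Overlapping intervals (1 bp or more) from different lists were counted as 1 region, which gave 706 regions at the guidance genes among 131410 in all.

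The cells were E14 mouse embryonic stem cells, a blastocyst-derived line, with no genetic change named in the labels. The assay was ATAC-seq, which uses a transposase to cut accessible DNA and leave sequencing adapters there. In the first group the cells were kept in N2B27, a serum-free medium, with 2iL, which stands for CHIR99021 (an inhibitor of GSK3), PD0325901 (an inhibitor of MEK) and LIF, a cytokine. In the other 2 groups 2iL was taken away the day after plating and the cells stayed in N2B27 alone for 48 h or 96 h. Each group had 2 samples, A and B, and 1 deposited peak list that served both. No spread between samples could therefore be measured, and no difference between times was tested. In bulk material, fewer cells with an open site and less opening per cell cannot be told apart.

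Axon guidance molecules tell growing nerve fibres where to go. Ephrins are membrane-bound ligands of the Eph receptor tyrosine kinases, so that signalling needs contact between cells, and the system also sets boundaries between tissues in the early embryo. Semaphorins are secreted or membrane-bound cues that signal through plexins, and the class 3 semaphorins use the neuropilins as co-receptors. Slits repel axons through Robo receptors, and netrin attracts them through Dcc and repels them through Unc5 receptors. Many of these genes also act outside the nervous system, among other places in blood vessels.

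The guidance genes took 0.453% of the listed intervals in 2iL, 0.488% at 48 h and 0.607% at 96 h, while the lists as a whole were shorter at each later time. Their intervals covered 296 kb in 2iL, 320 kb at 48 h and 326 kb at 96 h, against 66.8, 64.5 and 55.6 Mb for the whole lists. They lay farther from gene ends than listed intervals in general, at a median of 21.0, 18.2 and 19.0 kb in the 3 lists, against 10.03, 9.11 and 8.84 kb for all intervals within 100 kb of a gene. Their median fold enrichment, a value that the authors deposited for the summit of each interval, was 7.32 in 2iL, 7.73 at 48 h and 7.54 at 96 h. The same median over whole lists was 8.29, 8.14 and 8.79. The number of reads behind a list is not given in it, so the depth is unknown. As a check on the cell labels, 9 of 10 embryonic stem cell markers had an interval within 1 kb of a gene end in each list. Pou5f1, Nanog and Zfp42 were among the genes searched. Over all genes the share with such an interval was 67.6% in 2iL, 69.7% at 48 h and 68.0% at 96 h. The intervals at the 10 stem cell markers numbered 161, 124 and 89. At 7 neural ectoderm markers, such as Sox1 and Pax6, there were 57, 58 and 73 intervals, and the genes with one at an end numbered 4, 7 and 7. Markers of fibroblasts had 47, 47 and 59 intervals, those of extraembryonic endoderm 46, 50 and 54, and those of trophoblast 53, 45 and 45. An interval at an end was listed for 5, 5 and 6 of 8 fibroblast markers. For extraembryonic endoderm it was 5, 5 and 6 of 6 markers, and for trophoblast 5, 5 and 4 of 6. The end counts therefore do not set stem cells apart from these cell types. The part of other cell types in the results was not tested.

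Most guidance promoters were open at all 3 times, and the 5 windows that were covered in some lists only are printed here because they mark where the lists differ at a start site, with 1 strong window for contrast. RefSeq promoter windows (GRCm38.p6, the assembly of mm10), which run from 250 bases before to 50 bases after a start, were found for 39 of the 48 genes and numbered 47. An interval overlapped the window in all 3 lists for 39 of the 47 windows (83.0%), against 59.8% of 21263 RefSeq windows. Another 5 windows (10.6%) were covered in some lists, against 7.21% of all windows, and 3 (6.38%) in none, against 33.0%. The first of these shares rests on 5 windows and does not show a difference from all windows. The guidance windows held a median of 20 CpG sites, against 13 over all windows. In the sequences below, written 5′ to 3′ on the strand of the gene, capitals mark CpG. The first was covered at 48 h and 96 h and not in 2iL, and has 56 CpG, the most of all 47 windows. The second, from an inner start of Efna3, was likewise covered at 48 h and 96 h only. Efna3 had 0 regions gained by 48 h or by 96 h, so this coverage was not counted as a gained region. The third, from an inner start of Sema3a with 2 CpG, was also covered at 48 h and 96 h only. It lies more than 100 kb from both ends of Sema3a, so its intervals stand outside the counts of that gene. The next pair, both from Sema4d, with 3 and 2 CpG, was covered in 2iL and at 48 h and not at 96 h. The last, from the outermost Robo2 start, was covered in all 3 lists, with the highest fold of the 47 windows at 48 h and at 96 h.
Epha8, chr4:136956767-136957066, minus strand: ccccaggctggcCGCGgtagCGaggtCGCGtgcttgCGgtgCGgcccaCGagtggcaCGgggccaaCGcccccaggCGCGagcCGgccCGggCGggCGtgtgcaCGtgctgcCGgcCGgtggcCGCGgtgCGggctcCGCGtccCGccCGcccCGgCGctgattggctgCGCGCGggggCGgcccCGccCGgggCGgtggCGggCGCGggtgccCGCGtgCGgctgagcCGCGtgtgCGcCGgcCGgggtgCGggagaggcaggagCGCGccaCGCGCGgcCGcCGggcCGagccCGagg
Efna3, chr3:89321719-89322018, minus strand: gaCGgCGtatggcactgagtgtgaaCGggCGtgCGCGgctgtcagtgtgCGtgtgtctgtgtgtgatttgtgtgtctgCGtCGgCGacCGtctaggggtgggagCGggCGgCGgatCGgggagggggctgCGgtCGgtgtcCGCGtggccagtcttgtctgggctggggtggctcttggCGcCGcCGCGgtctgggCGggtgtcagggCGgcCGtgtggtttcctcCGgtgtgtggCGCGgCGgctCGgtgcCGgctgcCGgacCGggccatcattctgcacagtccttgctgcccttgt
Sema3a, chr5:13396534-13396833, plus strand: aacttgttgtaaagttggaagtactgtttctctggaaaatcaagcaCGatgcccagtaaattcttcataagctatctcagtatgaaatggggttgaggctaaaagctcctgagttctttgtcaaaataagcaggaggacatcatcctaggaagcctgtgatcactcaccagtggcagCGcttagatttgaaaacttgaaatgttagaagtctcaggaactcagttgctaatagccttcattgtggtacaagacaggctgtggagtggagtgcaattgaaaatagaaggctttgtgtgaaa
Sema4d, chr13:51748761-51749060, minus strand: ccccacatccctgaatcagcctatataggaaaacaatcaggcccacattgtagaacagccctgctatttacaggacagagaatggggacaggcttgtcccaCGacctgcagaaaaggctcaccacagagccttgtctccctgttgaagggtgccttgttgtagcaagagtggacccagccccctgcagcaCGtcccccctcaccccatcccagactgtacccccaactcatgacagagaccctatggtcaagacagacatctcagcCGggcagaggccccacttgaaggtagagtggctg
Sema4d, chr13:51756634-51756933, minus strand: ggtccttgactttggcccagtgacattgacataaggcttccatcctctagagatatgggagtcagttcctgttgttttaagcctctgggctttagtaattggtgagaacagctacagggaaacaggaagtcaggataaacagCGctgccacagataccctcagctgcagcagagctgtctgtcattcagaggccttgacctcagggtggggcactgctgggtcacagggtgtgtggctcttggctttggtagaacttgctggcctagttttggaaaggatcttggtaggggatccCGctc
Robo2, chr16:75447244-75447543, minus strand: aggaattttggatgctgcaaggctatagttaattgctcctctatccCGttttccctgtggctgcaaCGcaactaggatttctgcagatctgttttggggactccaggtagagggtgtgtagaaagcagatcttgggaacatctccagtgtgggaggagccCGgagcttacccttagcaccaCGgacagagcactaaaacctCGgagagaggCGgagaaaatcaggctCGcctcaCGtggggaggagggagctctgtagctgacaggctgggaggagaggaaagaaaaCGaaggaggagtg

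The intervals over these windows differed in strength. At the Epha8 window, which belongs to an Eph receptor of the developing midbrain, the fold was 6.09 at 48 h and 5.31 at 96 h, with no interval in 2iL. The inner Efna3 window had a fold of 3.90 at 48 h and 2.51 at 96 h, and the Sema3a window 8.46 and 6.83. The outer Efna3 window, covered in all 3 lists, had the same 48 h fold of 3.90, so this value may not belong to the inner start alone. The Sema4d windows had folds of 6.63 in 2iL and 9.47 at 48 h for the first, and 7.85 and 5.04 for the second. At Robo2 the fold was 14.9 in 2iL, 26.0 at 48 h and 30.2 at 96 h. Each fold is relative to the background of its own list, so these numbers show the rank of a site within a list and not a change. Other windows were strong in every list, among them those of Sema3d, with folds of 24.4, 23.1 and 25.6, Sema3c, with 23.2, 22.5 and 22.6, and the Eph receptor gene Epha3, with 22.2, 19.7 and 21.7. Short sequences bound by transcription factors of these cells were searched on both strands. CACCC, a KLF motif, was found in 36 of 47 guidance windows (76.6%) and 59.5% of all windows, and CTTTGA, a TCF/LEF motif, in 4 (8.51%) and 14.4%. TAATCC (OTX2) was found in 1 guidance window, AAGGTCA (ESRRB) in 2, CAGCTG (E-box) in 4 and ATGCAAA (POU octamer) in 0, against 6.42%, 4.08%, 15.6% and 4.23% of all windows. None of these motifs contains another, and a match only describes the letters in the window.

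The interval counts of single genes differed in both directions. Between 2iL and 96 h, 24 of the 48 guidance genes had more intervals at 96 h, 16 had fewer and 8 had the same number. Over all 18297 genes with an interval, 25.1% had more at 96 h and 45.3% had fewer. The summed count was 474 at 96 h and 413 in 2iL for the guidance genes, a ratio of 1.15, against 68477 and 81060 over all genes, a ratio of 0.845. At 48 h against 2iL, 23 guidance genes had more intervals and 18 fewer, beside 33.6% and 33.9% of all genes. At 96 h against 48 h, 23 had more and 15 fewer, beside 18.0% and 43.6% of all genes. The plot of intervals per gene shows how unlike the genes of a family were.

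**Figure D1:**
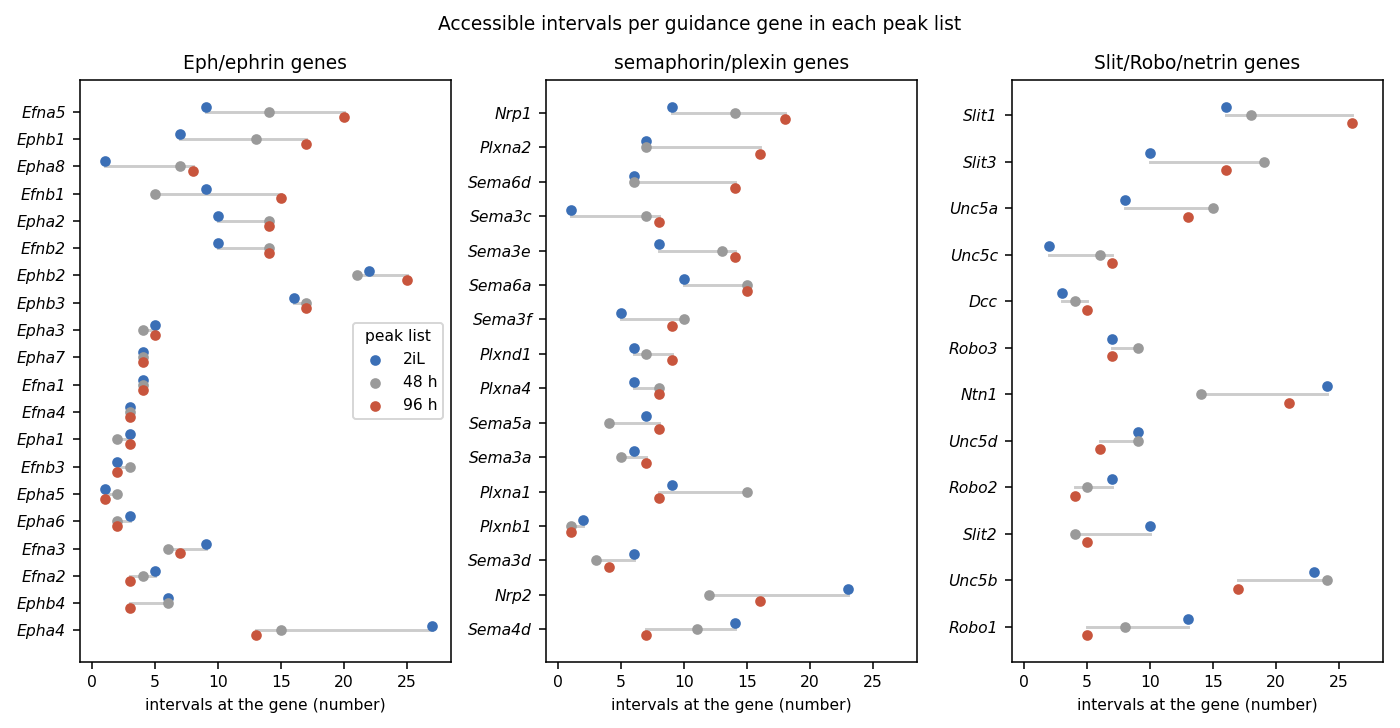
Number of listed intervals at each of the 48 guidance genes (x axis) in the 2iL, 48 h and 96 h lists, in 1 panel per family, with genes ordered by the difference between 96 h and 2iL. Each point is 1 list and the grey line spans the 3 points; Efna5, Nrp1 and Slit1 stand at the top of their panels and Epha4, Sema4d and Robo1 at the bottom.

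Eph receptors and ephrins had 156 intervals in 2iL, 160 at 48 h and 180 at 96 h. Of the 20 genes, 8 had more at 96 h than in 2iL, 5 had fewer and 7 had the same number. The largest difference of all was at Epha4 (chr1:77367182-77515107), a receptor that binds ephrins of both classes and that steers corticospinal axons. It had 27 intervals in 2iL, 15 at 48 h and 13 at 96 h. Of the 33 Epha4 regions, 16 were listed only in 2iL, and 7 were listed at every time, among them the promoter, with folds of 10.4, 10.3 and 11.8. Most of the regions, 27 of 33, lay inside the gene. All 16 regions seen only in 2iL had folds below the median of the 2iL list. One region inside the gene (chr1:77461620-77462522) was listed with folds of 4.22 in 2iL, 10.4 at 48 h and 17.6 at 96 h.

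Efna5 (chr17:62602957-62881317), which encodes an ephrin that patterns topographic maps in the brain, had 9 intervals in 2iL, 14 at 48 h and 20 at 96 h, the opposite direction. It gained 12 regions by 96 h relative to 2iL and lost 1. A pair of the gained regions reached folds of 15.9 and 13.6 at 96 h, 1 inside the gene and 1 59.2 kb upstream of it. Its start was marked by low folds in every list, 4.24, 3.78 and 4.28. The EphB receptor gene Ephb1 (chr9:101922128-102354693), which guides the axons that stay on their own side at the optic chiasm, had 7, 13 and 17 intervals. Here 11 regions were gained by 96 h and 1 was lost. The gained regions included the strongest of this kind in the family, inside the gene at chr9:101971668-101972157, with folds of 9.89 at 48 h and 24.1 at 96 h. The lost one, at chr9:101989958-101991259 and also inside the gene, had a fold of 13.7 in 2iL.

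Epha8 (chr4:136929419-136956859) had 1 interval in 2iL, 7 at 48 h and 8 at 96 h. Its single 2iL interval lay 4.70 kb downstream and was listed at all times, and 5 of the other regions were shared by 48 h and 96 h. Efnb1 (chrX:99136061-99149022), an X-linked ephrin gene that shapes craniofacial and tissue boundaries, had 9, 5 and 15 intervals. It was the only one of these 5 genes with its lowest count at 48 h. Of its 17 regions, 8 were listed only at 96 h, all with folds below the median of the 96 h list, and 7 of these lay downstream of the gene. The ephrin-B gene Efnb2, a ligand at the arterial side of vessels, and Epha2, a receptor of epithelial cells, both had 10, 14 and 14. An Efnb2 region 44.7 kb downstream (chr8:8572242-8572737) was absent from the 2iL list and had folds of 9.40 at 48 h and 17.7 at 96 h.

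The other 13 genes of the family differed by at most 3 intervals between 96 h and 2iL. Ephb2 had 22, 21 and 25 intervals, but 12 of its regions were gained and 10 were lost between 2iL and 96 h, so a near-equal count did not mean the same regions. Ephb3 had 16, 17 and 17 with 9 gained and 8 lost. The strongest region of the family that was seen only in 2iL lay 19.7 kb upstream of Ephb3 (chr16:21184717-21185207, fold 14.9). Ephb4, the partner of ephrin-B2 in veins, had 6, 6 and 3 intervals, Efna3 9, 6 and 7, and Efna2 5, 4 and 3. At Efna1 all 4 regions were listed at every time. Epha3 had 5, 4 and 5 intervals, Epha7 had 4 in every list and Efna4 3 in every list. Epha1 had 3, 2 and 3, Epha6 3, 2 and 2, Efnb3 2, 3 and 2, and Epha5 1, 2 and 1.

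Semaphorins, plexins and neuropilins had 125 intervals in 2iL, 138 at 48 h and 162 at 96 h, the largest difference between 96 h and 2iL of the 3 families. Of the 16 genes, 11 had more intervals at 96 h and 5 had fewer. The neuropilin genes, whose products help class 3 semaphorins bind and also serve as VEGF co-receptors, differed in opposite directions. Nrp1 (chr8:128358591-128505476) had 9 intervals in 2iL, then 14 at 48 h and 18 at 96 h, with 11 regions gained by 96 h and 2 lost. The gained regions with the highest folds lay 85.7 kb upstream (12.1 at 48 h and 23.0 at 96 h) and 30.4 kb upstream (11.9 and 18.6). Nrp2 (chr1:62703317-62818692) had 23, 12 and 16 intervals, with 9 regions lost by 96 h and 2 gained. In the 48 h list 12 of the Nrp2 regions of 2iL were missing, and 4 of these were listed again at 96 h.

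Among the receptors, Plxna2 (chr1:194619791-194816869), a plexin with roles in cerebellar and hippocampal wiring, had 7 intervals in 2iL, 7 at 48 h and 16 at 96 h. Of its 12 gained regions 10 were listed only at 96 h, and the strongest of them, inside the gene 43.5 kb from an end, had a fold of 22.3. It also held the strongest semaphorin or plexin region seen only in 2iL (chr1:194774711-194775196, fold 19.5). Plxnd1, the receptor of Sema3e in vessels, had 6, 7 and 9 intervals and Plxna4 6, 8 and 8. A region beyond the upper end of Plxna4 (chr6:32605474-32606172) had folds of 26.9 at 48 h and 26.9 at 96 h and no interval in 2iL, the highest of all guidance regions absent from 2iL. Plxna1 had 9, 15 and 8 intervals, with 7 regions seen only at 48 h. Plxnb1, a receptor for Sema4d, had 2, 1 and 1.

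Among the ligands, Sema6d (chr2:124089943-124667789), a transmembrane semaphorin, had 6 intervals in 2iL, then 6 at 48 h and 14 at 96 h, and 8 of its 9 gained regions were listed only at 96 h. Sema4d (chr13:51685529-51793678), a transmembrane semaphorin known from lymphocytes and from neurons, had 14, 11 and 7 intervals, with 8 regions lost by 96 h and 1 gained. The windows printed above that were covered in 2iL and at 48 h only belong to it, and its outer start kept an interval at folds of 9.11, 6.80 and 7.83. Sema3c, a secreted cue of the cardiac outflow tract, had 1, 7 and 8 intervals. Its only 2iL interval was the promoter, and all 6 regions present at 48 h beyond it were still listed at 96 h. Sema3e had 8, 13 and 14, and a region 50.5 kb upstream (chr5:13974490-13975083) had folds of 12.2 at 48 h and 25.3 at 96 h. Sema6a had 10, 15 and 15, Sema3f 5, 10 and 9, Sema5a 7, 4 and 8 and Sema3a 6, 5 and 7. Sema3d had 6, 3 and 4, and a region 87.4 kb upstream of it (chr5:12295424-12296132) was seen only in 2iL with a fold of 17.2.

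Slit, Robo, netrin, Dcc and Unc5 genes had 132 intervals in 2iL, 135 at 48 h and 132 at 96 h. This equal sum came from 5 genes with more intervals at 96 h, 6 with fewer and 1 with the same number. Slit1 (chr19:41597824-41747275), a ligand that repels axons at the midline, had 16, 18 and 26 intervals, all inside the gene. It gained 15 regions by 96 h and lost 5. The strongest gained one (chr19:41715987-41716820) was listed only at 96 h, with a fold of 22.0. Slit3 (chr11:35121456-35708507) had 10, 19 and 16 intervals, and 11 of its 48 h regions were absent from the 2iL list. Slit2 had 10, 4 and 5, and a region 26.5 kb downstream (chr5:48333868-48334690) was seen only in 2iL with a fold of 13.2.

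The Slit receptor gene Robo1 (chr16:72027518-73047491) had 13 intervals in 2iL, then 8 at 48 h and 5 at 96 h, with 9 of its 18 regions listed only in 2iL. A region 73.2 kb downstream was listed at every time with folds of 13.2, 25.7 and 23.9. Robo2 had 7, 5 and 4 intervals and Robo3, which controls midline crossing, 7, 9 and 7. Netrin itself, Ntn1 (chr11:68209364-68386826), had 24, 14 and 21 intervals, and 11 of its 33 regions were listed only in 2iL. The strongest of those (chr11:68262806-68263639, fold 15.1) lay inside the gene.

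The netrin receptors differed from one another. Unc5b (chr10:60762594-60831581), which is known from arterial endothelium, had 23, 24 and 17 intervals, with 10 regions lost by 96 h and 4 gained. Unc5a (chr13:54945151-55006018), a neuronal receptor, had 8, 15 and 13, with 8 gained by 96 h and 1 lost. Unc5c had 2, 6 and 7 intervals, and a region inside it (chr3:141819000-141820061) had folds of 13.8 at 48 h and 19.1 at 96 h and none in 2iL. Unc5d had 9, 9 and 6 and Dcc, the attractive receptor, 3, 4 and 5. Being nearest to a gene does not mean that a region acts on it.

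**Figure D2:**
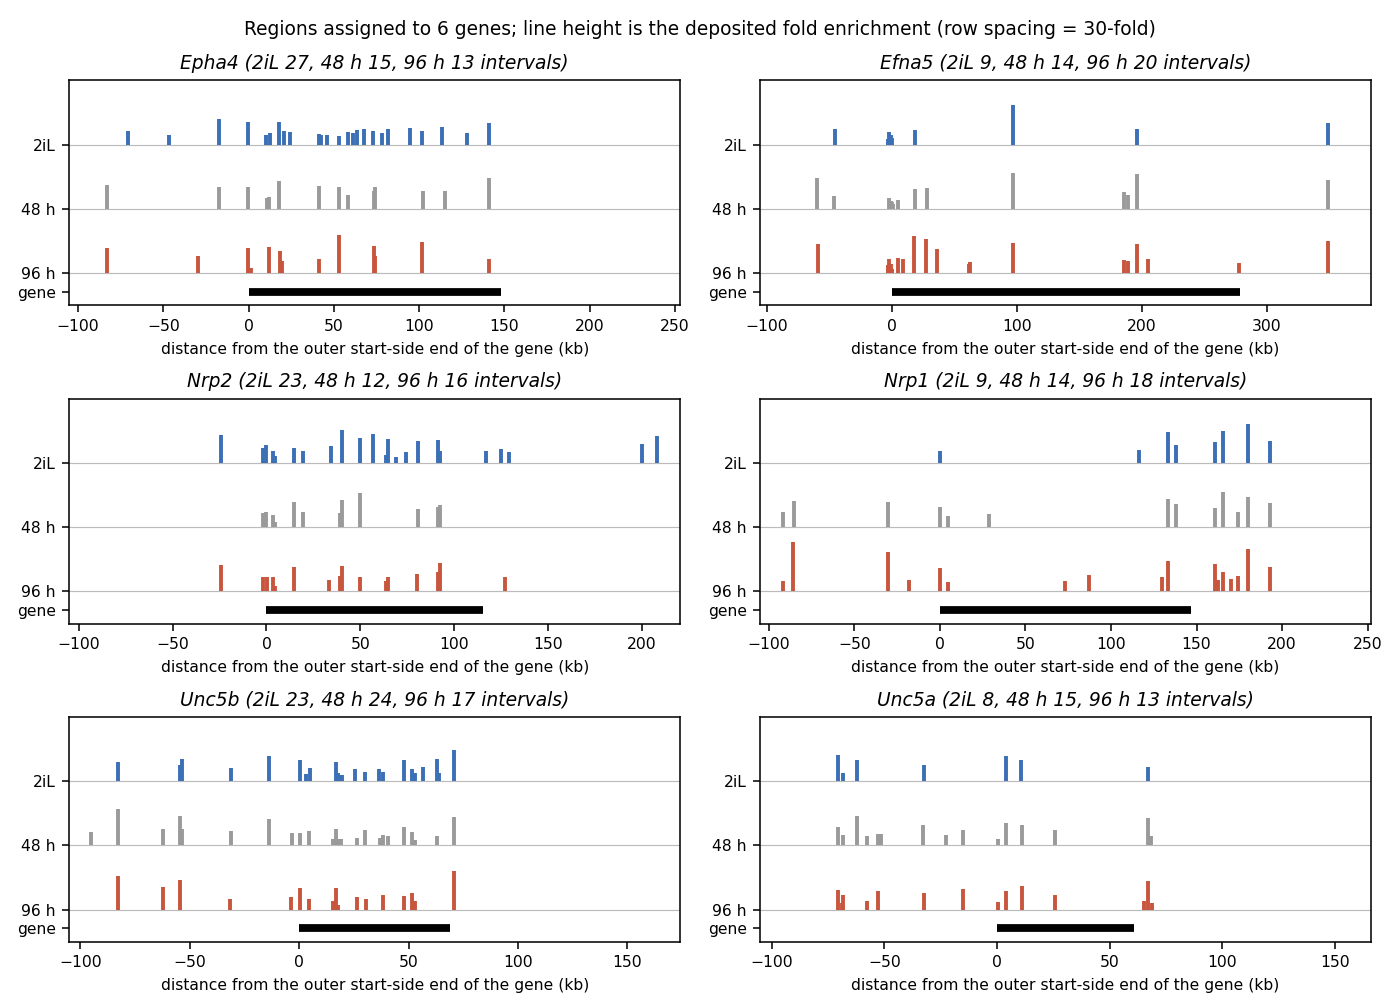
Regions at 6 genes (x axis, distance in kb from the start-side end of the gene, positive into the gene) in the 2iL, 48 h and 96 h lists. Line height is the deposited fold within that list and the black bar is the gene; 2iL intervals crowd inside Epha4 and Nrp2, while Efna5, Nrp1 and Unc5a have more lines at 96 h.

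Counted over regions rather than intervals, the share gained by 96 h was above that of all regions and the share lost was close to it. Of the 471 guidance regions in the 96 h list, 243 were absent from the 2iL list, or 51.6% (exact binomial 95% interval 47.0 to 56.2). The corresponding share of all regions at any gene was 32.6%, while among the marker lists it was 58.3% (46.1 to 69.8) for neural ectoderm, 48.3% (35.0 to 61.8) for fibroblasts and 40.7% (27.6 to 55.0) for extraembryonic endoderm. It was 27.9% (18.8 to 38.6) for embryonic stem cells and 11 of 44 regions (13.2% to 40.3%) for trophoblast. By family the gained share was 57.1% (49.1 to 64.9) at semaphorin and plexin genes, 92 of 161, then 50.3% (42.7 to 57.8) at Eph and ephrin genes, 90 of 179, and 46.6% (37.8 to 55.5) at Slit, Robo and netrin genes, 61 of 131. In the other direction, 181 of the 409 guidance regions in the 2iL list were absent at 96 h, 44.3% (39.4 to 49.2), close to the 43.1% of all regions. The family shares lost were 44.4% for semaphorins and plexins, 42.2% for Ephs and ephrins and 46.6% for Slits, Robos and netrin. The bracketed ranges hold only the error of counting, and they take regions at the same gene as independent, which these may not be.

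The gained share was also above that of all regions in each step of the time course. At 48 h, 169 of 430 guidance regions were absent from 2iL, 39.3% (34.7 to 44.1), against 29.5% of all regions. The family shares were 43.4% for semaphorins and plexins, 39.3% for Slits, Robos and netrin and 35.8% (28.4 to 43.8) for Ephs and ephrins, and the last interval included the share of all regions. From 48 h to 96 h, 147 of 471 were gained, 31.2% (27.0 to 35.6), against 19.0%. Here semaphorins and plexins were at 38.5% (31.0 to 46.5), Ephs and ephrins at 29.1% (22.5 to 36.3) and Slits, Robos and netrin at 25.2% (18.0 to 33.5), a range that included the share of all regions. Losses from 2iL to 48 h took 148 of 409 guidance regions, 36.2% (31.5 to 41.1), against 31.4%. Losses from 48 h to 96 h took 106 of 430, 24.7% (20.6 to 29.0), against 29.7%, and the lowest share was at Ephs and ephrins with 20.1% (14.2 to 27.2).

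**Figure D3:**
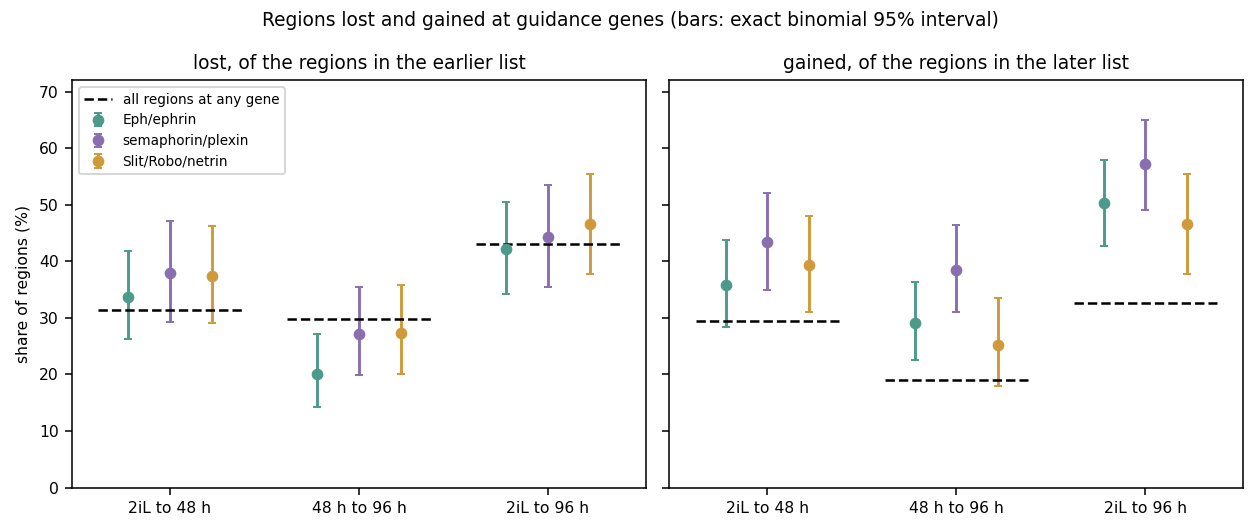
Share of regions (y axis, percent) lost from the earlier list (left) or gained in the later list (right) in each of 3 comparisons, for each family (points with exact binomial 95% intervals), beside all regions at any gene (dashed line). For 2iL to 96 h the gained points, at 50.3%, 57.1% and 46.6%, lie above the line at 32.6%, and the lost points lie around the line at 43.1%.

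The guidance genes had a smaller share of regions common to all 3 lists than genes in general. Such regions were 209 of 706, 29.6% (26.3 to 33.1), against 38.2% of the 113840 regions at any gene. Regions listed only at 96 h made up 18.1% (15.4 to 21.2) of the guidance regions and 9.43% of all, and those shared by 48 h and 96 h 16.3% (13.6 to 19.2) and 9.93%. Regions listed only in 2iL were 18.3% (15.5 to 21.3) of the guidance regions and 20.2% of all. Semaphorins and plexins had the highest share listed only at 96 h, 23.1% (17.9 to 29.0), and Slits, Robos and netrin the lowest, 12.4% (8.25 to 17.6). These shares come from the same lists as the gains and losses above and are no separate evidence.

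**Figure D4:**
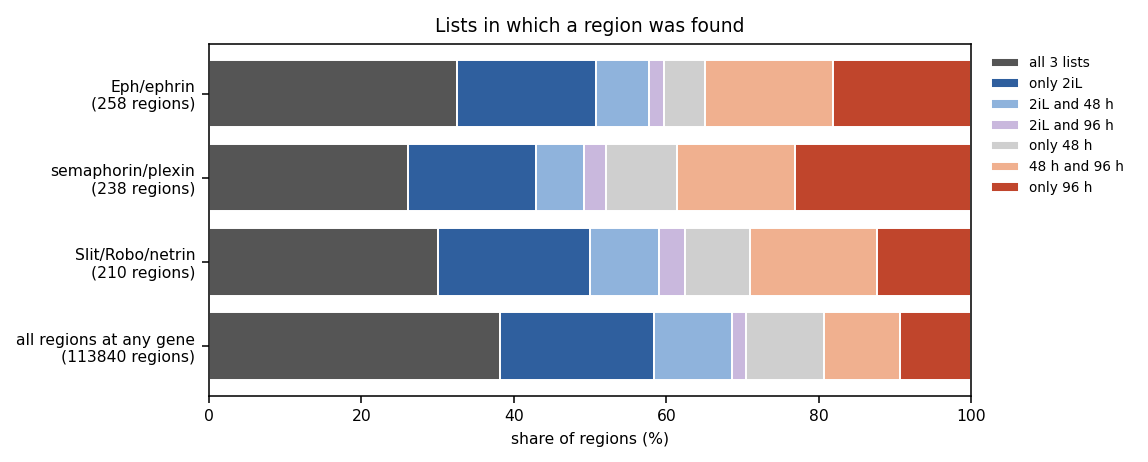
Composition of the regions of each family and of all regions at any gene (x axis, percent of regions) by the lists in which they were found. The dark red block, listed only at 96 h, is 18.2%, 23.1% and 12.4% in the 3 families from top to bottom and 9.43% over all regions.

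Gained guidance regions were mostly distant and of moderate strength. Their median distance to a gene end was 24.0 kb, against 13.6 kb for guidance regions in all 3 lists, and 13 of 243 lay within 1 kb of an end. Over all genes the medians were 15.9 kb for gained regions and 5.86 kb for those in all 3 lists. Within the 96 h list the median fold of gained guidance regions was 6.71, against 9.22 for those also in 2iL. Over all regions these medians were 6.43 and 10.7. Among regions above the median −log10 p of the 96 h list, 69 of 226 guidance regions were absent from 2iL, 30.5% (24.6 to 37.0), against 13.1% of all regions. Inside genes lay 426 of the 706 guidance regions. Of the 551 regions at genes with a known strand, 291 lay nearer to the start than to the other end (52.8%). Neither share was counted over all regions, so neither is shown to be particular to guidance genes.

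With either end of a gene counted, some guidance genes had an interval at an end at 96 h and not in 2iL, and the reverse was not seen, although single ends differed both ways. An interval of any assignment reached within 1 kb of an end in 45 of 48 genes at 96 h, 45 at 48 h and 41 in 2iL. The 41 genes had one in all 3 lists. Over all genes the share with such an interval was 68.0% at 96 h, 69.7% at 48 h and 67.6% in 2iL. The genes with one at 96 h and not in 2iL were Epha8, Robo1, Unc5a and Dcc, 8.33% of the 48, against 3.20% of all genes, and 0 had one in 2iL and not at 96 h, against 2.86% of all genes. These shares rest on 4 and 0 genes and have no interval, so they do not show a difference from all genes. At Dcc the interval had folds of 8.52 at 48 h and 7.10 at 96 h. At Robo1 it lay at the outermost start, with folds of 4.93 and 5.92, whereas the RefSeq promoter window far inside the gene, at chr16:72662899-72663198, was covered in all 3 lists at 14.9, 11.5 and 15.6. At Unc5a the outer start had 3.21 and 3.58, and the inner promoter window was covered in all 3 lists at 11.6, 10.5 and 8.84. No list had an interval at an end of Epha6, Slit1 or Slit2, yet the inner promoter windows of Epha6 and Slit2 were covered in every list, with folds of 13.8, 13.2 and 13.3 and of 7.03, 8.22 and 7.49.

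Single ends of other genes also differed between lists. The stop-side end of Slit3 had an interval at 48 h and 96 h, with folds of 13.1 and 11.6, and none in 2iL. The stop-side end of Efna5 had one only at 96 h (4.80) and that of Epha2 only in 2iL (8.10). The same held for the stop-side ends of Efna3, Efna4 and Epha1, listed only in 2iL with folds of 3.97, 3.92 and 6.44. Lower ends at Efnb2 and Efnb3 and the upper end of Efna2 were listed at 48 h and 96 h only, with folds of 9.11 or less. The lower end of Efna1 lacked an interval at 48 h only, and the upper end of Unc5a had one at 48 h only (4.67).

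**Figure D5:**
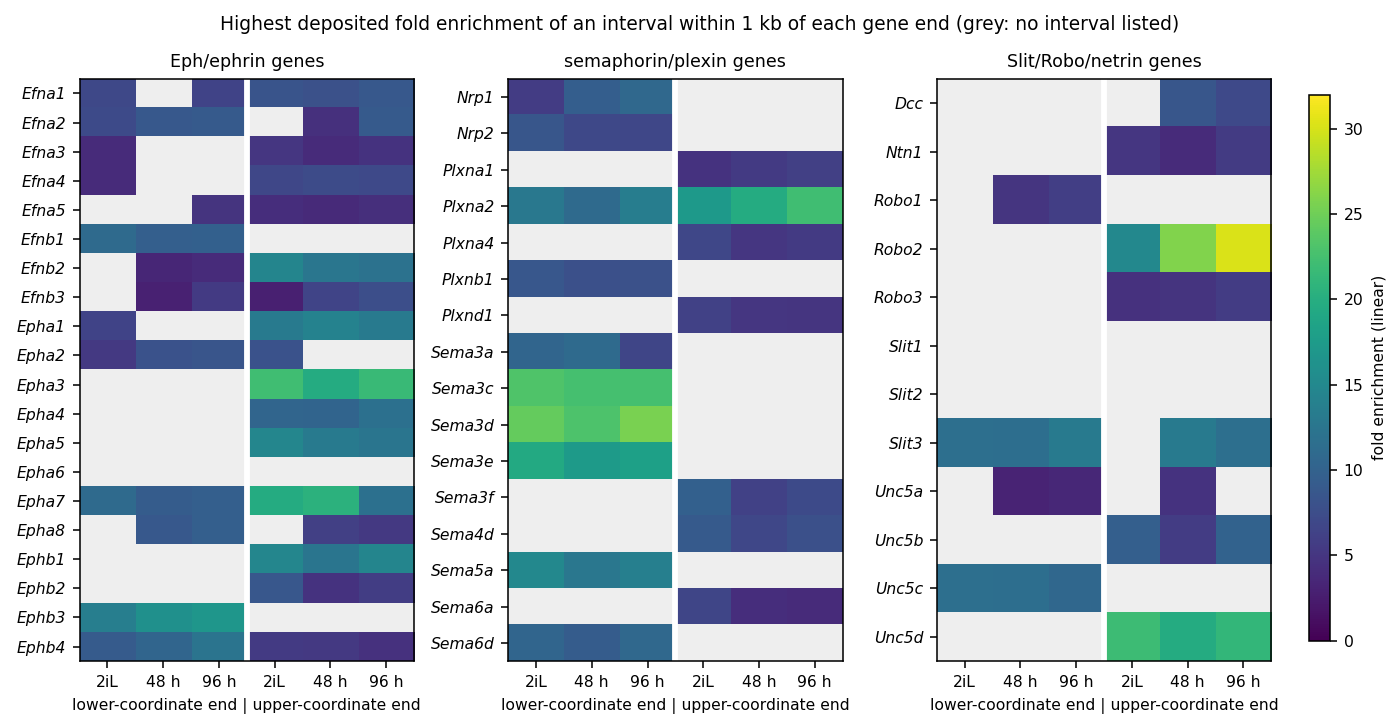
Highest deposited fold (colour, linear) of an interval within 1 kb of the lower and the upper end of each guidance gene in the 2iL, 48 h and 96 h lists. Grey means that no interval was listed; the Epha8 row is grey only in 2iL, and the upper end of Robo2 reaches the highest value, 30.2 at 96 h.

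Further genes of the same families and the signalling proteins below the receptors were counted in the same way. At 32 other guidance genes, among them Sema7a, Plxnb2, Neo1 and the Flrt genes, there were 200 intervals in 2iL, 204 at 48 h and 188 at 96 h. Of these genes, 8 had more intervals at 96 h than in 2iL and 14 had fewer, and 62 of 184 regions were gained by 96 h, 33.7% (26.9 to 41.0), near the 32.6% of all regions. Over all genes 25.1% had more and 45.3% fewer. Lost by 96 h were 76 of 198, 38.4% (31.6 to 45.5), against 43.1% of all regions. At 30 intracellular effectors, such as Trio, Fyn and the Dpysl genes, there were 328, 282 and 257 intervals. Here 7 genes had more at 96 h and 18 had fewer, 82 of 252 regions were gained, 32.5% (26.8 to 38.7), and 156 of 326 were lost, 47.9% (42.3 to 53.4).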

How the data were processed

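Per the labels, ATAC-seq was done on nuclei of E14 mouse embryonic stem cells, with 2 samples in each of 3 groups, and 1 peak list was deposited per group for both samples. The labels do not state separate cultures for A and B. Tools in the submitters' processing notes are Picard, SAMtools, BWA and bcl2fastq 2.20.0.422, with no role given, and the build is mm10. Not given in the sources used here are the peak caller, the treatment of duplicates and whether reads were shifted, each of which could change the weak intervals of a list. The deposited values are a score per interval and, per summit, a linear fold ratio, a −log10 p and a summit offset from the interval start. The deposited −log10 q was not used. Where an interval had several summits, that with the highest −log10 p gave its values. Folds of a region printed for several lists are each relative to their own list and do not measure a change.

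The numbers of summits were 187330 in 2iL, 185562 at 48 h and 166089 at 96 h. Intervals were assigned by midpoint to the nearest end of 21887 protein-coding genes within 100 kb (RefSeq gene table of GRCm38.p6, the assembly of mm10), and all 48 guidance genes matched. This table holds no exons, so no exon, intron or UTR is named, and strand was known only for genes with a promoter window. Lost means listed earlier and absent later, gained the reverse. The background was the 113840 regions, 86.6% of 131410, with an interval at any gene. Shares have exact (Clopper-Pearson) 95% intervals, which cover counting error only. With 1 list per group no test was possible. Genes described in full were the 5 of each family with the largest difference in intervals between 96 h and 2iL, and those with an interval at a gene end in some lists only. Single regions chosen by rule were the 2 of each family with the highest fold among those only in 2iL, and among those at 96 h and not in 2iL. Further regions named in the text, such as those at Epha4, Efna5, Nrp1 and Robo1, fall outside this rule. Members, gene lists and rules were chosen with earlier results of these data known. The counting was tested on simulated data. Python 3.11.15, pandas 2.3.3 and SciPy 1.17.1 were used. Tried alternatives were 6 planned settings and 3 added after seeing the data.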

Additional observations from a re-analysis of the deposited data

How the results depend on the processing

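Membership of a region in a list depends on a limit that is not given here, so a weak site can be listed at 1 time and missed at another, and depth is unknown. Under 9 other settings, 18 shares, compared with all regions, were recomputed. The 3 interval counts were recomputed under some of these settings only. Shares lost lay both above and below those of all regions, except at Ephs and ephrins from 48 h to 96 h (below) and at Slits, Robos and netrin from 2iL to 48 h (above). By the main rule the latter share was 37.4% (29.1 to 46.3), a range that included the 31.4% of all regions. The share that Slits, Robos and netrin gained from 48 h to 96 h also lay both above and below (-0.552 to 15.2 points), and each other gained share stayed above. In percentage points above all regions, the share gained by 96 h relative to 2iL was 24.6 for semaphorins and plexins (16.4 to 26.0 over the settings), 17.7 for Ephs and ephrins (14.2 to 21.9) and 14.0 for Slits, Robos and netrin (8.46 to 23.8). The 8.46 came from counting only regions over 1 kb from a gene end. There the share for Slits, Robos and netrin was 47.1% (37.8 to 56.4), a range that included the 38.6% of all regions. Counting only regions above the median −log10 p of their list gave 16.4 for semaphorins and plexins, with 7.76 for the step from 48 h to 96 h, whereas Ephs and ephrins were at 21.9 by 96 h; the cause was not tested. With a limit of 20 kb in place of 100 kb, Slits, Robos and netrin gained 23.8 points more than all regions by 96 h relative to 2iL, and their share lost from 48 h to 96 h differed by -11.1 points. That limit left 202, 228 and 241 intervals for 2iL, 48 h and 96 h. Assigned by gene body, Slits, Robos and netrin gained 15.2 points more than all regions from 48 h to 96 h, and the cause was not tested. With every list cut to 78055 intervals there were 337, 389 and 474 guidance intervals. The genes with most gained regions, Efna5 (tied with Ephb2 at 12), Plxna2 and Slit1, were also left out, a choice made after seeing the data. Gained shares by 96 h were then 49.1%, 55.2% and 43.8%, against 32.6% of all regions. No paired analysis was possible because each list serves both samples of a group, and for the same reason no replicate could be left out.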

Other observations

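In the largest guidance genes, intervals deeper than 100 kb from both gene ends were not assigned to the gene that held them and stand outside its counts above. Slit3 held 19 such intervals in 2iL, 23 at 48 h and 30 at 96 h, more than were assigned to it in any list. Ephb1 held 6, 10 and 12, and Sema3a 2, 2 and 7. Robo1 and Robo2 had fewer at 96 h than in 2iL but the lowest number at 48 h, with 19, 10 and 14 at Robo1 and 11, 6 and 9 at Robo2. Unc5d held 7, 3 and 3, and Dcc 4, 2 and 2. No test was made of these counts.

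The 209 guidance regions that stayed listed throughout had a median width of 731 bp in 2iL, 809 bp at 48 h and 783 bp at 96 h. The median ratio of widths, 96 h over 2iL, was 1.03, and 121 of them (57.9%) were wider at 96 h. Over all 43474 regions of this kind the ratio was 1.005 and 51.8% were wider. By family, 61.9% of 84 Eph and ephrin regions, 56.5% of 62 semaphorin and plexin regions and 54.0% of 63 Slit, Robo and netrin regions were wider at 96 h, but the median width of the last group was 694 bp at 96 h and 715 bp in 2iL.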
